A study of Mus musculus with 20 samples.

Results

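The genes described here are 9 lymphocyte genes, Cd3e, Cd4, Cd8a, Cd79a, Ms4a1, Cxcl13, Ccl5, Gzmk and Jak3, out of 57010 genes in the count table. They were found by matching their symbols to the Ensembl identifiers of the table, and all 9 were found. Polyadenylated RNA was sequenced from liver and kidney of 12-month-old male UM-HET3 mice, a genetically heterogeneous cross in which no mouse is a genetic copy of another. The 7c groups (6 livers, 6 kidneys) came from mice given repsox, tranylcypromine, DZNep, CHIR99021, forskolin and TTNPB, each at 0.1 mg/kg/day, together with valproate at 1 mg/kg/day, for 28 days from osmotic minipumps placed under the skin. The vehicle groups (4 livers, 4 kidneys) received the solvents alone, 50% DMSO and 50% PEG300, from the same kind of pump, so surgery and solvent were shared by all 20 libraries. The 7 compounds were given together and their separate effects cannot be told apart. The labels number the replicates within each group but do not say whether a liver and a kidney with the same number came from 1 mouse.

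Cd3e encodes a signalling chain of the CD3 complex, which every mature T cell carries with its antigen receptor, and Cd4 and Cd8a encode the coreceptors that divide helper from cytotoxic T cells. Cd79a encodes a signalling chain of the B cell receptor and Ms4a1 encodes CD20, a surface protein of mature B cells. Cxcl13 is the chemokine that draws B cells into follicles, Ccl5 is a chemokine made by activated T and natural killer cells, Gzmk is a granzyme of effector T cells, and Jak3 is the kinase bound to the common gamma chain shared by several interleukin receptors. Liver and kidney hold resident and passing leukocytes, the source of these transcripts in the tissues was not measured, and bulk RNA cannot separate fewer cells of a type from less RNA per cell.

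Sequencing gave 28383359 to 34153084 counts per liver library and 27855849 to 64872451 per kidney library. The defining markers stood as the tissue labels say: 5 of 5 hepatocyte genes were higher in vehicle liver and 6 of 6 kidney tubule and glomerulus genes were higher in vehicle kidney. No 2 libraries of a group were alike within sampling noise. Over all genes 7c kidney 5 stood apart, with a chi-square per gene of 69.9 to 246 against the other 7c kidneys. Those differed among themselves by 31.2 to 102, so the ranges overlapped. Vehicle kidney 2 stood apart as well, with a chi-square per gene of 124 to 199 against the other vehicle kidneys. Those differed among themselves by 27.9 to 29.5. The summed erythrocyte level of vehicle kidney 2 was 1053 CPM against 246 to 495 CPM in the other 3 vehicle kidneys. The 7c kidneys ran from 374 to 1808 CPM. Of the 160 counts above 0 for the 9 genes, 133 (83.1%) were even numbers, as were 78.6% of all counts from 1 to 20 in the table, so a count of 2 at these low levels may stand for 1 sequenced fragment; the cause was not tested. A count of 3, the limit that a count of 0 allows, corresponded to 0.103 to 0.136 CPM (counts per 1e6 counts of the scaled library total) in liver and 0.0366 to 0.0836 CPM in kidney, and these limits cover counting error only and would be higher if 1 fragment gave a count of 2.

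In the GRCm39 annotation (GENCODE vM39) the 9 genes are protein coding and lie on 8 chromosomes, with only Cd4 and Cd8a sharing chromosome 6. Cd3e (ENSMUSG00000032093) spans chr9:44910037-44920925 on the minus strand, Cd79a (ENSMUSG00000003379) spans chr7:24596740-24601622 on the plus strand and Jak3 (ENSMUSG00000031805) spans chr8:72123007-72143225 on the plus strand. Jak3 shares bases with Insl3 on its own strand and with B3gnt3 and Unc13a on the opposite strand, and Gzmk shares bases with Esm1 on the opposite strand. Cd3e shares bases with the noncoding Gm48719 on the opposite strand, which had 0 to 4 counts per library. The strand setting used for counting is not given in the sources used here, so the treatment of reads in the shared bases is not known. Esm1 had 562 to 2090 counts in the kidneys, where Gzmk did not exceed 4.

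Sequence before the start site was at hand for 6 of the 9 genes (RefSeq, GRCm38.p6), and the 9-base word CAGGAAGTG, which holds the GGAA core bound by ETS-family factors, was searched on both strands of the 250 bases before each start. The word was chosen after these sequences were seen. It occurred in Cd3e and Cd79a, the pan-T and pan-B genes among them, and in 374 of all 32851 windows of that length (1.14%). Since the word was chosen this way, that share is no test of the matches. The 30 bases around it are shown with the word, or its reverse complement, in capitals. They come from the 2 members with a match, which are also the lineage genes whose kidney levels are compared below.
Cd3e, chr9:45009612-45009641, minus strand, word 19 to 11 bases before the start: agtcccctctaCACTTCCTGtgtggggttc
Cd79a, chr7:24897430-24897459, plus strand, word 56 to 48 bases before the start: gcacggctgaaCAGGAAGTGaggcggagtt
The Cd79a stretch lies inside 7 of the 8 GENCODE transcripts of that gene, which start further upstream, and the Cd3e stretch lies inside 0 of 5. A match of letters is a description and not a binding site.

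Jak3 had the most counts of the 9 genes in every group. To compare genes of unequal length, CPM was divided by the exon length in kilobases (CPM per kb). In vehicle liver the order of mean levels per length was Cxcl13 at 1.06 CPM per kb, Jak3 at 1.01, Ccl5 at 0.910, Cd4 at 0.605, Cd79a at 0.510, Gzmk at 0.0745, Cd3e at 0.0479, Cd8a at 0.0336 and Ms4a1 at 0.0293. In vehicle kidney the order was Jak3 at 1.65 CPM per kb, Ccl5 at 1.01, Cd79a at 0.761, Cxcl13 at 0.255, Cd8a at 0.180, Cd4 at 0.126, Cd3e at 0.0801, Ms4a1 at 0.0590 and Gzmk at 0.0277. The ranges over libraries overlapped for all 8 pairs of neighbours in the liver order, so the places of neighbouring genes there were not separated by their spread. In kidney 6 of 8 pairs overlapped; the exceptions were Jak3, whose lowest library at 1.44 CPM per kb lay above the highest Ccl5 library at 1.41, and Cd79a, whose lowest library at 0.659 lay above the highest Cxcl13 library at 0.325. The mean of Cd3e lay below those of Cd79a and Jak3 in both tissues, although the Cd79a range in liver began at 0 and spanned that of Cd3e. Cd3e counts ran from 3 to 17 in the livers and from 6 to 32 in the kidneys.

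**Figure D1:**
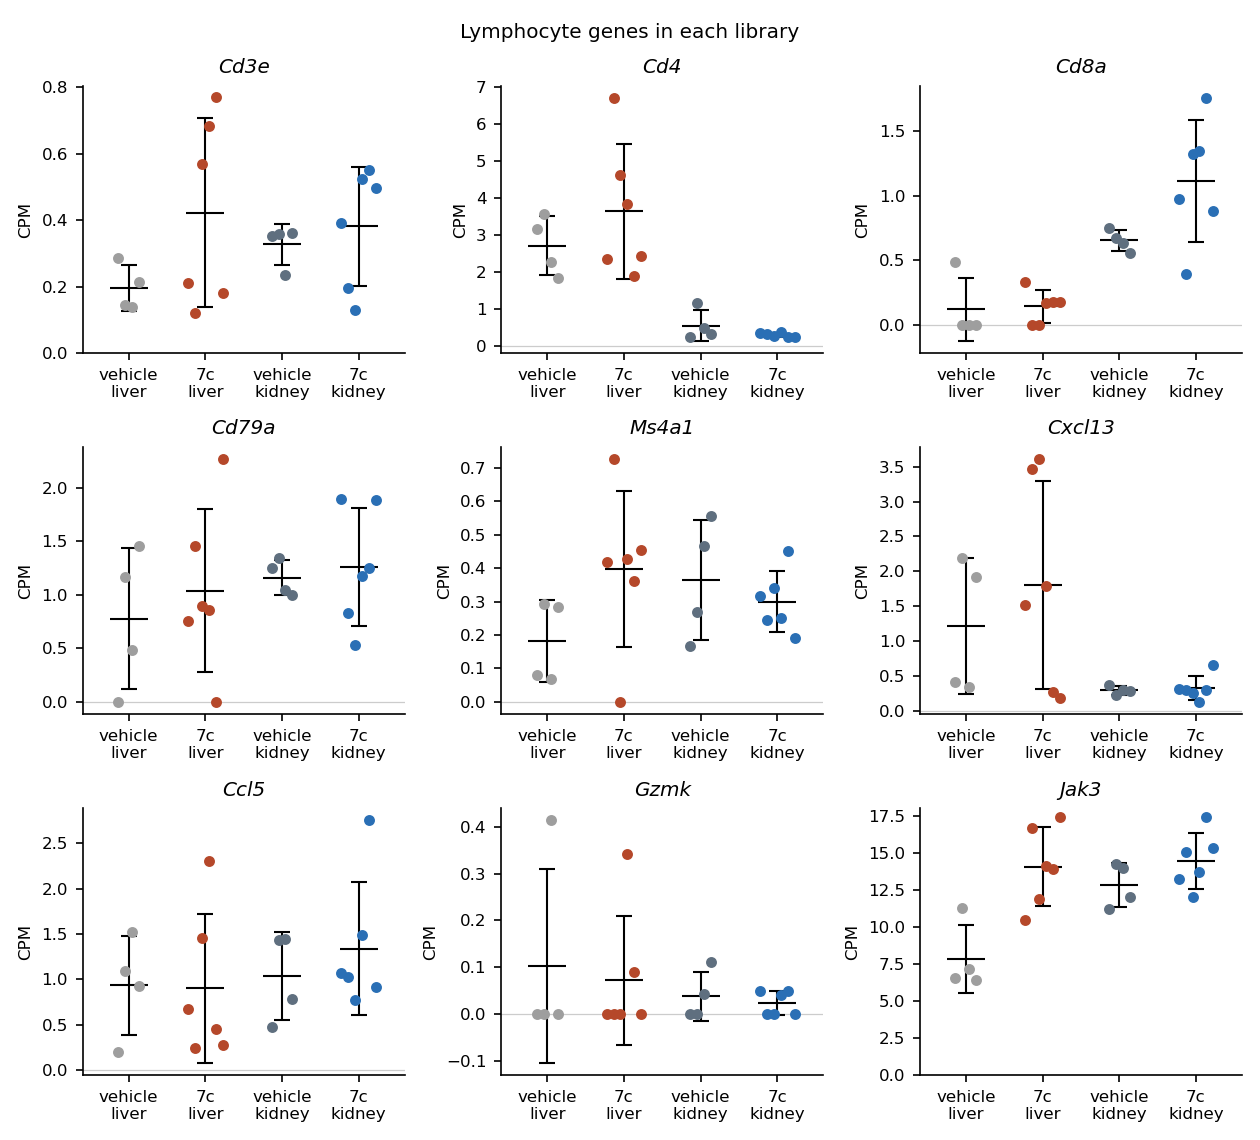
Level of each of the 9 genes in every library, in CPM on a linear axis that includes 0 (each panel has its own scale), by tissue and treatment (4 vehicle and 6 7c libraries per tissue). Points are libraries, horizontal lines are means and bars are SDs; 5 of the 6 7c livers lie above all vehicle livers for Jak3, and the vehicle livers lie above the vehicle kidneys for Cd4 without overlap.

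Treatment with 7c was first compared with vehicle in liver. Jak3 was the member with the largest shift relative to its error, at 14.1 ± 2.69 CPM in 7c liver (SD, n = 6) and 7.83 ± 2.31 CPM in vehicle liver (SD, n = 4). The vehicle livers held 6.53, 11.3, 7.14 and 6.39 CPM, and the 7c livers ran from 10.4 through a median of 14.0 to 17.4 CPM. Thus 5 of 6 7c livers lay above every vehicle liver, and the overlap came from vehicle liver 2 and the lowest 7c liver. None of the 5 members tested in liver separated the groups fully, and 0.666% of all genes did, 0.373% with 7c higher and 0.293% with 7c lower. The log2 fold change was 0.82 ± 0.198 (SE), with an unadjusted p of 0.00106 in edgeR's quasi-likelihood test, and the adjusted p over the 15012 genes tested was 0.9996 by the method of Benjamini and Hochberg. The exact two-sided permutation test of its log2 CPM over the 210 splits gave p = 0.00952, where the smallest p these groups allow is 0.00476. Jak3 therefore did not pass the threshold of 0.05 once all genes were counted, and 3.76% of the genes tested had an unadjusted p under 0.05. Its overlapping neighbours held far fewer counts in liver: 0 to 16 for Insl3, 16 to 56 for B3gnt3 and 59 to 104 for Unc13a, against 160 to 413 for Jak3. Their log2 fold changes in liver were 0.61 for B3gnt3 and 0.44 for Unc13a, with adjusted p = 0.9996 for both (edgeR).

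Among the T cell genes in liver, Cd4 was tested and Cd3e and Cd8a did not reach the filter of 10 counts in 50% of the libraries. Cd4 stood at 3.18, 3.57, 2.28 and 1.85 CPM in the vehicle livers and ran from 1.91 through a median of 3.15 to 6.70 CPM in the 7c livers. The groups overlapped, although 3 of 6 7c livers lay above all vehicle livers, and the log2 fold change was 0.41 ± 0.368 (SE) with an adjusted p of 0.9996 (edgeR). Cd3e counts were 7, 4, 4 and 6 in the vehicle livers and 3 to 17 in the 7c livers with a median of 9.5. The 3 highest 7c livers, with 14, 16 and 17 counts, lay above all vehicle livers and 1 lay below them, and the exact permutation p was 0.205 for 6 against 4 libraries. Cd8a was at 12 counts in vehicle liver 1 and at 0 in the other 3 vehicle livers, and ran from 0 to 8 counts in the 7c livers with 2 of 6 at 0. A difference in Cd8a was not detectable at this depth (exact permutation p = 0.5).

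For the B cell genes, Cd79a was at 0, 1.17, 0.483 and 1.46 CPM in the vehicle livers and ran from 0 through 0.874 to 2.27 CPM in the 7c livers. A library at 0 occurred in each group, and the log2 fold change was 0.39 ± 0.931 (SE) with an adjusted p of 0.9996 (edgeR). Ms4a1 had 2 to 8 counts in the vehicle livers and 0 to 18 in the 7c livers. For this gene 5 of 6 7c livers lay above all vehicle livers and the sixth was at 0, with an exact permutation p of 0.362 over the 210 splits.

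The chemokines and the granzyme varied widely between libraries within each liver group. Cxcl13 was at 0.408, 2.19, 0.345 and 1.92 CPM in the vehicle livers, and the 7c livers ran from 0.181 through 1.65 to 3.61 CPM. Both groups thus held livers near 0.3 CPM and livers near 2 CPM or above. The 7c livers reached beyond the vehicle range at both ends. The log2 fold change was 0.56 ± 0.785 (SE; adjusted p = 0.9996, edgeR), and ran from 0.23 to 1.35 over the alternatives. Ccl5 ran from 0.204 to 1.52 CPM in vehicle and from 0.242 to 2.31 CPM in 7c, with a log2 fold change of -0.08 ± 0.696 (SE). Gzmk was at 0 in 3 of 4 vehicle livers and 4 of 6 7c livers, with 12 counts in vehicle liver 3 and 8 counts in 7c liver 4 as the highest values. In all, 5 of the 9 genes could be tested in liver and 0 passed, against 1 of all 15012 genes (0.00666%). Their median log2 fold change was 0.41 beside 0.00 over all genes tested, a description only, since a gene could pass the filter through the 6 7c libraries alone.

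Treatment with 7c was next compared with vehicle in kidney, where 8 of the 9 genes passed the filter and only Gzmk did not. The coreceptors differed most in size. Cd8a was at 0.748, 0.672, 0.637 and 0.557 CPM in the vehicle kidneys and ran from 0.391 through 1.15 to 1.75 CPM in the 7c kidneys. Of the 7c kidneys 5 lay above all vehicle kidneys and 1 lay below them, and the log2 fold change was 0.75 ± 0.378 (SE) with an unadjusted p of 0.0698 and an adjusted p of 0.997 (edgeR). Cd4 was at 0.249, 1.16, 0.510 and 0.334 CPM in the vehicle kidneys and ran from 0.251 through 0.310 to 0.378 CPM in the 7c kidneys. The 7c kidneys lay inside the vehicle range, and the log2 fold change was -0.85 ± 0.446 (SE; adjusted p = 0.997, edgeR). It rested largely on vehicle kidney 2, a library that stood apart over all genes, without which it was -0.22. Without that library the other 7 members tested kept their signs, and the log2 fold change of Cd8a was 0.76. Without 7c kidney 5, which also stood apart, that of Cd8a was 0.57. Per exon base, Cd4 had 0.697 counts for each Cd8a count in vehicle kidney and 0.237 in 7c kidney, and these ratios carry no test. None of the 8 members tested in kidney separated the groups fully, and 0.716% of all genes did, 0.366% with 7c lower.

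Cd3e in kidney was at 0.353, 0.358, 0.234 and 0.362 CPM with vehicle and ran from 0.128 through 0.443 to 0.551 CPM with 7c. Of the 7c kidneys 4 lay above and 2 below all vehicle kidneys, so the 7c group spread to both sides. The log2 fold change was 0.21 ± 0.470 (SE), or 0.086 without 7c kidney 5. Cd79a showed the same kind of spread, from 1.00 to 1.34 CPM with vehicle and from 0.534 to 1.89 CPM with 7c, with 2 of 6 7c kidneys above and 2 below the vehicle range and a log2 fold change of 0.12 ± 0.349 (SE). The SD of the 7c kidneys was 0.180 CPM for Cd3e and 0.550 CPM for Cd79a, beside 0.0623 and 0.164 CPM in the vehicle kidneys. For Cd4 and Ms4a1 the order was the other way, with 0.0551 and 0.0918 CPM in 7c against 0.414 and 0.179 CPM in vehicle kidney, and the differences in spread were not tested. Ms4a1 had 8 to 22 counts with vehicle and 10 to 26 with 7c, and its log2 fold change was -0.29 ± 0.448 (SE).

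Ccl5 in kidney ran from 0.478 to 1.44 CPM with vehicle and from 0.768 to 2.76 CPM with 7c, where kidney 5 alone stood above 1.49 CPM, and its log2 fold change was 0.35 ± 0.424 (SE), or 0.015 without that kidney. Cxcl13 ran from 0.224 to 0.374 CPM with vehicle and from 0.126 to 0.649 CPM with 7c, with a log2 fold change of 0.13 ± 0.471 (SE). Jak3 was at 11.2, 14.3, 13.9 and 12.0 CPM in the vehicle kidneys and ran from 12.0 through 14.3 to 17.4 CPM in the 7c kidneys. These groups overlapped, and the log2 fold change was 0.16 ± 0.133 (SE). Gzmk did not exceed 4 counts in any kidney. Across the 8 members tested in kidney 0 passed the threshold with the quasi-likelihood test and 0 had an unadjusted p under 0.05, beside 0% and 2.61% of all 17749 genes tested.

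The effect of 7c was then compared between tissues. The difference of the log2 fold changes, liver minus kidney, was 1.25 ± 0.571 (SE) for Cd4, with an unadjusted p of 0.0397, and 0.66 ± 0.240 (SE) for Jak3, with an unadjusted p of 0.0124. Neither passed after adjustment over 14163 genes (adjusted p = 0.9999 for both, edgeR), 0 of the 5 members tested, beside 0.00706% of all genes, and 2.49% of all genes had an unadjusted p under 0.05. Without replicate 2 of the vehicle group the difference for Cd4 was 0.79. For Cd79a, Cxcl13 and Ccl5 the differences were 0.26 ± 0.998, 0.42 ± 0.971 and -0.45 ± 0.840 (SE), all smaller than their errors.

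Vehicle liver and vehicle kidney were compared to place the genes in the tissues without 7c. These vehicle libraries are the same ones that entered the comparisons above. Cd4 and Cxcl13 were higher in liver and Jak3 was lower, 3 of the 8 members tested, where 52.8% of all 18598 genes differed between the tissues, 24.7% with liver higher and 28.2% with liver lower, and 58.1% had an unadjusted p under 0.05. Cd4 stood at 2.72 ± 0.795 CPM in liver and 0.564 ± 0.414 CPM in kidney (SD, n = 4 each). Every liver lay above every kidney, the log2 fold change was 2.26 ± 0.528 (SE), the adjusted p was 0.00384 (edgeR), and the exact permutation p was 0.0286, the smallest that 4 against 4 allow. Jak3 was at 7.83 CPM in liver and 12.8 ± 1.49 CPM in kidney. Of the 4 livers 3 lay below all kidneys, and the log2 fold change was -0.71 ± 0.220 (SE; adjusted p = 0.0179, edgeR), with the median of all genes at -0.11.

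Cxcl13 stood at 1.21 ± 0.974 CPM in liver and 0.294 ± 0.0622 CPM in kidney (SD, n = 4 each). Of the 4 livers 3 lay above all kidneys and liver 3, at 0.345 CPM, lay inside their range. The log2 fold change was 2.04 ± 0.702 (SE; adjusted p = 0.0300, edgeR), and the call was lost in 8 of the 17 alternative fits, with an adjusted p of 0.166 when the replicate number entered as a block, 0.101 and 0.0779 without livers 2 and 4, and 0.052 to 0.0727 without any 1 kidney. Cd8a pointed the other way, with 0.654 ± 0.0794 CPM in kidney and only vehicle liver 1 above 0 in liver. The 2 tissues did not overlap for Cd8a (52% of all genes did not), the exact permutation p was 0.0286 and the log2 fold change was -2.43 ± 1.23 (SE) with an adjusted p of 0.120 (edgeR). Without vehicle liver 1 the remaining livers were all at 0, so the size of the difference rests on that library; the adjusted p was then 0.00131 and the fitted log2 fold change, which has no measured size against 0, was -7.61. Cd3e, Cd79a, Ms4a1 and Ccl5 had log2 fold changes of -0.73 ± 0.651, -0.57 ± 0.823, -0.98 ± 0.775 and -0.14 ± 0.621 (SE), and none of these passed (adjusted p from 0.311 to 0.868, edgeR).

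The coreceptor and CD3 counts stood in different proportions in the tissues. Summed over libraries and taken per exon base, Cd4 stood at 12.7 times Cd3e in vehicle liver and 8.03 times in 7c liver, but at 1.59 times in vehicle kidney and 0.755 times in 7c kidney. Cd4 stood at 19.8 times Cd8a in vehicle liver, where all 12 Cd8a counts came from liver 1, and at 0.697 times in vehicle kidney. Without vehicle kidney 2, which held 52 of the 100 Cd4 counts, the kidney ratios were 0.452 to Cd8a and 1.06 to Cd3e. Cd79a stood at 11.1 times Cd3e in vehicle liver at 6.63 times in 7c liver, at 9.64 times in vehicle kidney and at 9.43 times in 7c kidney. Vehicle liver 1 had no Cd79a count, and without it the vehicle liver ratio was 16.7. These are ratios of summed counts without a test. Most macrophage and Kupffer cell markers moved with the tissue difference of Cd4: 10 of 12 were higher in liver and 0 lower, beside 24.7% and 28.2% of all genes. Csf1r of that list ran the other way in every fit (log2 fold change -0.93 to -0.42), without passing in the main fit. The summed level of the list was 222 to 559 CPM in vehicle liver and 110 to 168 CPM in vehicle kidney. Clec4f, a lectin of Kupffer cells, was at 107 CPM in vehicle liver and 0.0320 CPM in vehicle kidney. The part of these cells in the Cd4 level was not tested.

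**Figure D2:**
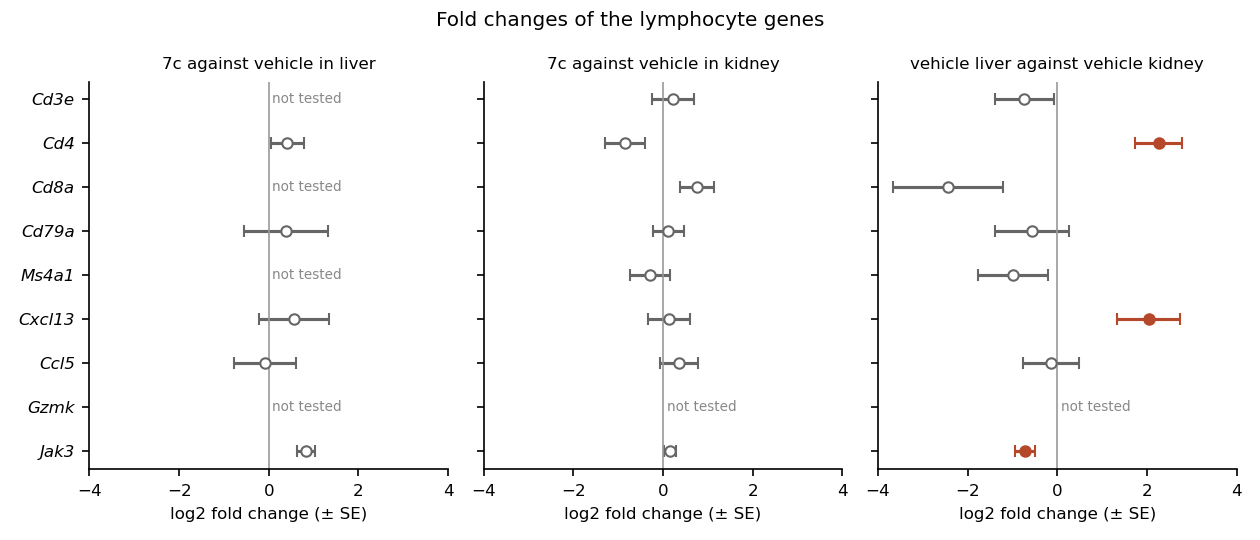
Log2 fold change and its SE (edgeR) for the 9 genes in 3 comparisons, 7c against vehicle in liver (left) and kidney (middle) and vehicle liver against vehicle kidney (right). Filled points passed an adjusted p of 0.05, open points did not, and genes under the count filter are marked as not tested; only Cd4, Cxcl13 and Jak3 between tissues are filled.

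Wider lists of the same cell types showed how the 9 genes sit among their neighbours. In the T cell list 10 of 29 genes could be tested in liver and 23 in kidney, and 0 passed for 7c against vehicle in either tissue. Their median log2 fold change was 0.55 in liver, with 9 of 10 above 0, and 0.17 in kidney, with 15 of 23 above 0, beside 50.4% and 49.0% of all genes above 0. A gene could enter the test through the 6 7c libraries alone, so these signs are a description. In liver the costimulatory genes Cd2 and Cd27 had log2 fold changes of 0.69 ± 0.832 and 0.86 ± 0.723 (SE). Over the alternatives these ran from 0.29 to 1.47 and from 0.45 to 1.08. The largest shifts in the list, named after their values were seen, were those of the adaptor Lat and the receptor constant gene Trbc1, at 2.67 ± 0.846 and 1.73 ± 0.941 (SE; adjusted p = 0.9996 for both, edgeR). Lat was at 0 to 12 counts in the vehicle livers and at 16 to 28 in the 7c livers, so that all 6 lay above all vehicle livers, as did 0.373% of all genes tested. Lat reached the count filter mainly through its 7c libraries, and its lowest adjusted p over the alternatives was 0.213. Vehicle liver 3 held 12 of its 16 vehicle counts, and without it the log2 fold change was 4.13. Trbc1 was at 0 to 10 counts with vehicle and 2 to 20 with 7c, and its log2 fold change ran from 1.32 to 2.62 over the alternatives. In kidney the CD3 chains Cd3d and Cd3g had 0.20 ± 0.651 and 0.15 ± 0.460 (SE), beside 0.21 for Cd3e. Other receptor chains, named after their values were seen, ranged more widely, from 1.55 ± 0.609 (SE) for the zeta chain Cd247 and 0.84 ± 0.405 (SE) for Trac to -0.71 ± 0.421 (SE) for Trbc2, and none passed (adjusted p = 0.997 for each, edgeR).

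In the B cell list 12 of 19 genes were tested in liver and 16 in kidney, with median log2 fold changes of 0.23 and 0.08 and 0 calls. Cd79b, the partner chain of Cd79a, had -0.05 ± 0.585 in liver and 0.03 ± 0.461 in kidney (SE). The largest shifts in liver among the B cell genes given here, named after their values were seen, were those of Siglecg, an inhibitory lectin, and Fcer2a, the low-affinity IgE receptor, at 1.84 ± 0.914 and 1.76 ± 0.739 (SE; adjusted p = 0.9996 for both, edgeR). Siglecg was at 0 to 16 counts with vehicle and 6 to 20 with 7c, and Fcer2a at 0 to 10 and 6 to 30. Vehicle liver 2 held 16 of the 20 vehicle counts of Siglecg, and without it the log2 fold change was 3.61. Over the alternatives the log2 fold changes ran from 1.43 to 3.61 for Siglecg and from 1.36 to 2.12 for Fcer2a. As in the T cell list, a gene could enter the test through the 7c libraries alone, so these shifts are a description. In the cytotoxic effector list 7 of 24 genes were tested in liver and 13 in kidney, again with 0 calls. Gzmb and Ctsw, a granzyme and a cathepsin of killer cells, had 0.94 ± 1.14 and -0.04 ± 0.580 (SE) in liver, and Gzma, Prf1 and Nkg7 had 0.61 ± 0.505, 0.63 ± 0.412 and -0.11 ± 0.477 (SE) in kidney.

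Among the receptor and kinase partners of Jak3, the common gamma chain Il2rg had log2 fold changes of 0.08 ± 0.355 in liver and -0.01 ± 0.173 in kidney (SE). The interleukin-2 receptor chains Il2ra and Il2rb had -0.35 ± 0.819 and 0.66 ± 0.451 in liver, and 0.02 ± 0.870 and 0.51 ± 0.399 in kidney (SE). Of the 17 genes in this common gamma chain and JAK-STAT list 14 were tested in liver with a median of -0.03, and 0 passed. Cish, named after its values were seen, had 1.87 ± 0.809 in liver (SE; adjusted p = 0.9996, edgeR), and 0.87 to 2.21 over the alternatives. For the lymphoid tissue organisation, chemokine receptor, plasma cell and macrophage lists 0 genes passed in either tissue, with median log2 fold changes of 0.43, -0.46, -0.32 and 0.09 in liver and of 0.14, -0.19, -0.30 and 0.12 in kidney. The dendritic cell, neutrophil, erythrocyte and adrenal cortex lists also had 0 calls, with medians of -0.06, 0.26, 0.79 and -0.01 in liver and of -0.21, 0.77, 0.84 and -0.27 in kidney, and Dntt, the single immature lymphocyte gene tested, had 0.58 in liver.

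Fat cell markers stood higher in most 7c kidneys. All 6 adipocyte genes, which include Adipoq, Plin1 and Lep, had higher mean levels in 7c kidney at an unadjusted p under 0.05, beside 2.61% of all genes at that p in either direction, with a median log2 fold change of 2.26, and 0 passed after adjustment (Plin1 2.50 ± 0.835, SE; adjusted p = 0.997, edgeR). Cidec, a lipid droplet protein of the same list named after its values were seen, had 2.55 ± 0.60 (SE; adjusted p = 0.997), and passed with DESeq2 (adjusted p = 0.00197) and with the likelihood ratio test (adjusted p = 0.0311). Their summed level ran from 0.49 to 11.3 CPM in vehicle kidney and from 8.64 to 48.8 CPM in 7c kidney. The part of fat cells in the kidney values of the 9 genes was not tested.

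**Figure D3:**
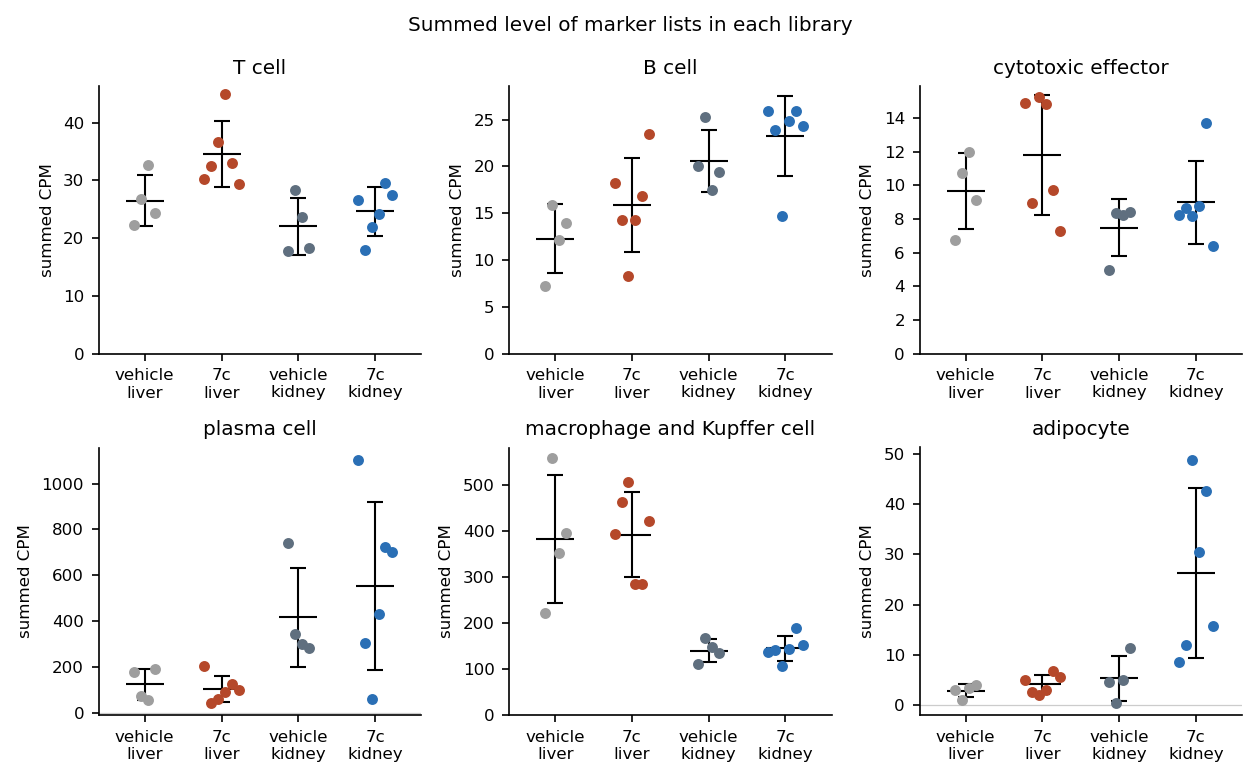
Summed level of 6 marker lists in every library, in CPM on linear axes that include 0, by tissue and treatment. Zap70 made up 58.6% (vehicle) and 52.9% (7c) of the T cell sum in liver. Blnk made up 50.2% (vehicle) and 55.8% (7c) of the B cell sum in kidney. Points are libraries, lines are means and bars are SDs; the T cell and B cell sums of 7c and vehicle overlap in both tissues, the macrophage and Kupffer cell sum is higher in liver, and the adipocyte sum reaches 48.8 CPM in 7c kidney against at most 11.3 CPM in vehicle kidney.

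Between the vehicle tissues 3 of 23 T cell genes tested were higher in liver and 4 were lower, beside 24.7% and 28.2% of all genes. Zap70, the kinase that binds the phosphorylated CD3 chains, was at 15.5 CPM in vehicle liver and 0.563 CPM in vehicle kidney, a log2 fold change of 4.77 ± 0.271 (SE; adjusted p = 6.28e-08, edgeR). It made up 58.6% of the summed T cell level in vehicle liver. Bcl11b, a transcription factor of T cell commitment, ran opposite, at 0.143 CPM in liver and 7.14 CPM in kidney (log2 fold change -5.58 ± 0.746, SE; adjusted p = 7.44e-05). Of the T cell receptor components, chosen after their values were seen, Trac was at 0.339 CPM in liver and 1.88 CPM in kidney (log2 fold change -2.45 ± 0.882, SE; adjusted p = 0.0359), a call lost in 4 of 17 alternative fits (without vehicle liver 1 or 2 or vehicle kidney 2 or 3, adjusted p from 0.0595 to 0.108), while Cd3d and Cd3g had -1.19 ± 0.971 and -1.39 ± 1.02 (SE) and did not pass. Cd3d, Cd3g and Trac were each at 0 counts in 1 of 4 vehicle livers, whereas Zap70 was above all kidneys in 4 of 4. The summed T cell level thus rested on different genes in the tissues, with Bcl11b the largest share in vehicle kidney at 32.4%.

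Among the B cell genes the adaptor Blnk was lower in liver, at 2.59 against 10.3 CPM (log2 fold change -1.99 ± 0.305, SE), and the scaffold Bank1 was higher, at 2.52 against 0.294 CPM (3.10 ± 0.610, SE). The other 14 tested did not pass, so 1 of 16 was higher and 1 lower, beside 24.7% and 28.2% of all genes. Of 9 plasma cell genes tested 4 were lower in liver and 1 was higher, beside 28.2% and 24.7% of all genes. The heavy chain of IgA, Igha, was at 2.37 CPM in vehicle liver and 202 CPM in vehicle kidney, Igkc was at 24.3 and 147 CPM and Jchain at 6.48 and 32.2 CPM (log2 fold changes -6.42 ± 0.611, -2.60 ± 0.430 and -2.31 ± 0.582, SE). In the immature lymphocyte list the single gene tested was Dntt, the polymerase that adds bases at antigen receptor joints. It was higher in liver at 5.53 against 0.0546 CPM (log2 fold change 6.53 ± 0.573, SE; adjusted p = 2.36e-06, edgeR), as were 24.7% of all genes. Of the 5 genes in the list 3 were at 0 in every vehicle liver, and Dntt made up 99.6% of the summed level there.

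Of the genes that guide lymphocytes, Ccl21a and Ccl19, the ligands of Ccr7, were lower in liver, at 0.426 against 5.06 CPM and 0.285 against 2.16 CPM (log2 fold changes -3.56 ± 0.558 and -2.89 ± 1.07, SE), opposite to Cxcl13. The tissues overlapped for Ccl19, and its call was lost in 7 of 17 alternative fits, those with limma-voom, with the replicate block, and without vehicle liver 1, 2 or 4 or vehicle kidney 1 or 2 (adjusted p from 0.0562 to 0.375). Without vehicle kidney 2 its log2 fold change was -1.74. Of 7 chemokine receptor genes tested 5 were higher in liver and 0 lower, beside 24.7% and 28.2% of all genes. Ackr4, a scavenging receptor, was at 3.08 against 0.508 CPM (log2 fold change 2.59 ± 0.417, SE). Ccr3 was at 2.62 CPM in vehicle liver and at 0 counts in all 4 vehicle kidneys. The checkpoint receptor Lag3 was the only 1 of 14 cytotoxic effector genes to pass, at 2.66 against 0.645 CPM (log2 fold change 2.04 ± 0.487, SE). Of all genes 24.7% were higher in liver and 28.2% were lower. Around Jak3, the receptor chains Il15ra and Il4ra and the transcription factor Stat3 were higher in liver (log2 fold changes 2.06 ± 0.140, 1.21 ± 0.146 and 1.62 ± 0.215, SE), opposite to Jak3. They were among 6 of 16 genes of this list that were higher, and 3 were lower, beside 24.7% and 28.2% of all genes. The lower ones were Jak3 itself and, named after their values were seen, Il2rg, the common gamma chain that Jak3 binds (-1.16 ± 0.326, SE; adjusted p = 0.0112, edgeR), and Cish, an inhibitor of cytokine signalling (-1.55 ± 0.397, SE; adjusted p = 0.00654, edgeR). The Cish call was lost with both tissues in 1 fit (adjusted p = 0.0930).

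The last comparison asked whether the members varied together between mice. Of 16 relations of Cd3e with the other 8 genes across the 10 libraries of a tissue, 0 passed an adjusted p of 0.05. The strongest was with Cd79a in kidney, with Pearson's r = 0.795 (permutation p = 0.00593, adjusted over 16 relations 0.0949) and Spearman's rho = 0.648 (permutation p = 0.0496). It fell to r = 0.375 without the 2 kidneys farthest from the median of Cd3e, and so rests on them; within the 6 7c kidneys r was 0.820 (exact permutation p = 0.0556). In liver the same pair had r = -0.464 (permutation p = 0.149). Cd3e with Cd4 had r = -0.07 in liver and -0.04 in kidney, and with Cd8a 0.34 and 0.36.

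The genes whose levels were most like those of Cd79a in kidney, over 10 libraries, were all immunoglobulin kappa genes: Igkv17-127 (r = 0.965), Igkv6-15 (r = 0.948), Igkc (r = 0.925), Igkv1-135 (r = 0.916) and Igkv12-44 (r = 0.906). Members of this gene family can share reads, depending on how the counting split them, so these values are not independent of each other and are a description. Igkc, the kappa constant gene, ran from 93.2 to 239 CPM in the vehicle kidneys and from 18.1 to 370 CPM in the 7c kidneys. The 7c kidney with the least Igkc, kidney 3, also had the least Cd79a, at 0.534 CPM, and the kidney with the most Igkc, 7c kidney 1, had the most, at 1.89 CPM, with 7c kidney 6 also at 1.89 CPM. The r of Igkc was 0.780 without the 2 kidneys farthest from the median of Cd79a. Ms4a1, the other B cell gene described here, ran opposite, with r = -0.295 to Cd79a in kidney at 8 to 26 counts per library. Cd3e, a T cell gene, had r = 0.795. Over the B cell list the median r with Cd79a in kidney was 0.40 for 15 genes, with 11 above 0. The median over all genes was -0.002. Whether Cd79a followed the B cell content of the kidneys was not tested. In liver the 5 genes most like Cd79a were Naip6 (r = 0.950), Rpl28-ps3 (0.944), Slc28a2 (0.928), S1pr4 (0.915) and Rpl9-ps4 (0.911), and no immunoglobulin gene was among them. Without the 2 farthest livers their r ran from 0.251 to 0.744.

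**Figure D4:**
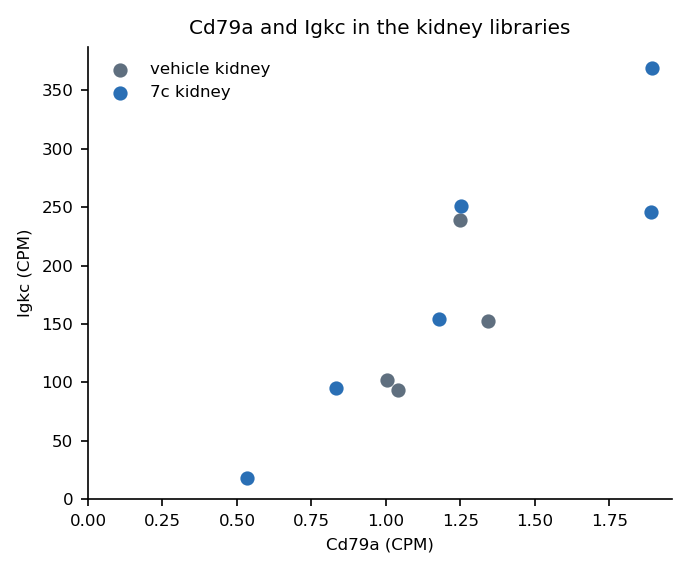
Cd79a (x axis, CPM) and Igkc (y axis, CPM) in the 10 kidney libraries, 4 vehicle and 6 7c, each point a library, with linear axes from 0. Points run from 7c kidney 3, at 0.534 and 18.1 CPM, to 7c kidney 1, at 1.89 and 370 CPM, and the vehicle kidneys lie between them.

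Among the genes most like Cd3e were Gm35993 (r = 0.924), Zbtb12 (0.880), Thy1 (0.839) and Zc3hav1l (0.839) in liver, and Tgm1 (0.958), Gm8565 (0.943), Pnpla7 (0.943), Kirrel2 (0.941) and Gm9083 (0.940) in kidney. Thy1, a surface protein of T cells, was the only 1 of those named here that is commonly used as a T cell marker. The median r with Cd3e over the T cell list was 0.13 for 10 genes in liver and 0.25 for 22 genes in kidney, beside 0.01 and 0.00 over all genes, and in kidney it was 0.47 over 16 B cell genes, 0.45 over 9 plasma cell genes and 0.43 over 8 macrophage genes. With 3 to 32 counts per library for Cd3e, these correlations of sparse counts carry no test.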

How the data were processed

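RNA from 20 libraries (liver and kidney; 4 vehicle and 6 7c mice per tissue) was made with a stranded TruSeq mRNA kit. The deposited values are whole-number counts per gene. Per the labels and the submitters' processing notes, reads were aligned to GRCm39 with STAR 2.7.11b and counted with featureCounts 2.0.6; the annotation release, the strand setting, and whether reads or fragments were counted are not given in the sources used here. Of 57010 genes 22978 were at 0 in every library, and 56310 matched GENCODE vM39.

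A gene was tested where 50% or more of a tissue's libraries held 10 counts or more (in either tissue, for the comparison between tissues), with edgeR 4.0.16 (R 4.3.3; TMM scaling, quasi-likelihood F-test, Benjamini-Hochberg adjustment over all genes tested, threshold 0.05), with treatment or tissue as the only factor. The SE is the absolute log2 fold change divided by the square root of F. Printed CPM (counts per 1e6 of the scaled library total) share a single TMM scaling over all 20 libraries, while each fit was scaled on its own libraries. Single genes had an exact two-sided permutation test of log2 CPM (prior count 2), and relations between genes a permutation test with scipy 1.17.1. Fits were tested on simulated data. Total counts per library were 27855849 to 64872451; counting error is largest, relative to the value, for genes with few counts. P-values measure the spread between these libraries.

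Alternatives were DESeq2 1.42.0 (with RLE scaling also in edgeR), limma-voom (limma 3.58.1), the likelihood ratio test, 2 other count filters, both tissues in 1 fit, the replicate number as a block, leaving out each library, and, chosen after the data were seen, halved counts. The 9 genes and the 16 other lists were chosen with earlier results of these data known. Genes named from a list were those past the threshold (at most 3 by p), otherwise its first 3 that passed the filter. The 5 genes with the highest r to Cd3e and to Cd79a were also to be named. For 7c against vehicle, genes of 5 lists and Dntt of the immature lymphocyte list were named, and the other lists were given by counts. Of 178 list genes 1 was not matched. Some genes that this rule names are not reported here.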

Additional observations from a re-analysis of the deposited data

Results flagged for a closer look

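Of 36 sets of values, the 9 genes in 4 groups, 7 held a library that stood apart from the others of its group by Dixon's test at 95%; chance gives about 1 in 20 for continuous values, a rate that need not hold for counts this sparse, and 2 of the 7 are a single library above 0 beside libraries at 0. Of these, 5 concern levels of at most 0.649 CPM. Cd3e in vehicle kidney 3 was low, at 0.234 CPM against 0.353 to 0.362 CPM in the other 3. Cd8a in vehicle liver 1 was at 0.490 CPM with the other vehicle livers at 0. Gzmk in vehicle liver 3 was at 0.414 CPM with the others at 0, and in 7c liver 4 at 0.342 CPM against 0 to 0.0908 CPM. Cxcl13 in 7c kidney 6 was at 0.649 CPM against 0.126 to 0.317 CPM. Ccl5 in 7c kidney 5 was at 2.76 CPM against 0.768 to 1.49 CPM. Jak3 in vehicle liver 2 was at 11.3 CPM against 6.39 to 7.14 CPM, and it is the library that overlaps the 7c livers; without it the log2 fold change of Jak3 for 7c in liver was 1.03 with an adjusted p of 0.708 (edgeR).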

How the results depend on the processing

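No member passed the threshold for 7c against vehicle in liver or kidney, or for the difference between the tissues, under any alternative run that gave an adjusted p (DESeq2 gave none for the 5 members tested for that difference); the lowest adjusted p of Jak3 in liver was 0.108, with DESeq2. The number of all genes called for 7c in liver, 1, was 6 with DESeq2, 7 with the likelihood ratio test, 4 without a filter, 2 with filterByExpr, 4 with both tissues in 1 fit, 0 with the replicate block and 0 to 2 when leaving out 1 library. In kidney it was 0, and 18 with DESeq2, 2 with limma-voom, 14 with the likelihood ratio test, 3 without a filter, 18 with both tissues in 1 fit, 2 with halved counts and 0 to 3 when leaving out 1 library. For the difference between tissues it was 1, and 16, 0, 22, 11 and 4 with DESeq2, limma-voom, the likelihood ratio test, no filter and filterByExpr, 0 with the replicate block and 0 to 6 when leaving out a number. Halving the counts left 4 of 8 members tested in kidney and 6 of 8 between tissues. The cause of these changes was not tested.

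Between the vehicle tissues 9828 genes were called, 8742 to 10023 when leaving out 1 library, and 2 to 4 members. Cd4 and Jak3 passed in every fit run (highest adjusted p 0.0143 and 0.0493). Cxcl13 was lost in 8 fits, and Cd8a passed in 3, with limma-voom, with both tissues in 1 fit and without vehicle liver 1. The number of relations of Cd3e past the threshold was 0, and 0 to 1 when leaving out a number (1 without 7c replicate 1).

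Same-numbered liver and kidney libraries correlated in their deviations from the group means at r = 0.0130 to 0.172 (vehicle) and 0.0166 to 0.259 (7c), and 3 of 4 and 4 of 6 samples correlated best with the sample of their own number, a hint from the data and not the design. With the replicate block, 2 members passed between tissues, Cd4 and Jak3. The block turned the log2 fold change for 7c of Ccl5 and Il2ra in liver to 0.22 and 0.24, and of Cd3e, Cd79a, Cxcl13 and Cd79b in kidney to -0.23, -0.20, -0.29 and -0.17. Limma-voom turned Cd79b and Ctsw in liver to 0.10 and 0.066; DESeq2 and the likelihood ratio test turned Il2ra in kidney to -0.023 and -0.014. Leaving out 1 library moved the sign of these uncalled log2 fold changes, in liver for Cd79a (-0.017 to 0.90), Ccl5 (-0.60 to 0.27), Cd79b (-0.45 to 0.26), Ctsw (-0.27 to 0.61), Il2ra (-0.68 to 0.57) and Il2rg (-0.088 to 0.31), and in kidney for Cd79a (-0.035 to 0.28), Cxcl13 (-0.19 to 0.30), Cd3d (-0.31 to 1.00), Cd3g (-0.14 to 0.83), Cd79b (-0.24 to 0.76), Il2ra (-0.40 to 0.26), Il2rg (-0.083 to 0.043) and Nkg7 (-0.45 to 0.056). For the difference between tissues it did so for Cd79a (-0.18 to 0.83), Cxcl13 (-0.0055 to 0.97) and Ccl5 (-0.94 to 0.029), and between vehicle tissues for Ccl5 (-0.47 to 0.19).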
